A study of Mus musculus with 4 samples.

Results

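Apoptosis and p53 pathway genes were described across 4 clonal lines of c17.2, a mouse neural stem cell line immortalised with v-myc. The 31 genes on the list were chosen by symbol: members of the BCL2 family, proteins released from mitochondria, caspases and their inhibitors, death receptor components, DNA fragmentation factors, and p53 with its ubiquitin ligase Mdm2. A probe set annotated with 1 gene symbol was found for 28 of the 31, out of 8236 genes with such a probe set on the array. These 28 genes had 44 probe sets, 1 of them an array control for Fas. A filter on low signals, at least 2 of 4 arrays above the median signal of 145.05, was passed by 28 probe sets of 20 genes. Another 8 genes had probe sets of which none passed, and Bax, Trp53 and Ripk1 were not analysed here. Of those 28 probe sets, 21 were above that signal on all 4 arrays, 5 on 3 and 2 on 2, so a probe set could pass through 1 group or 1 pair of clones alone.

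Total RNA from each line was hybridised to 1 Affymetrix mouse array. Clone 42 and clone 48 are labelled as lines carrying the nuclear receptor Nurr1 after stable transfection, and puroB and puroD as clonal lines carrying the empty puromycin vector. All 4 lines grew under proliferating conditions, and clone 42 was matched with puroB (the first pair) and clone 48 with puroD (the second pair) because their proliferation rates were similar. The sample descriptions give this pairing, while the design text writes the number of clone 42 beside both controls, with the abbreviation of clone 48 beside puroD; the sample descriptions were followed. Each line is 1 clone on 1 array, so clonal differences and the effect of the transfected gene rest on 2 clones per group; which promoter drives Nurr1 is not given in the labels. No treatment that causes cell death is recorded, so the values describe growing cells.

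Signals are in arbitrary units after each array was scaled to a trimmed mean of 500, and differences are on the log2 scale, where 1 stands for a 2-fold difference. Median signals ran from 125.6 to 160.1 over the 4 arrays, and the highest control probe set for a transcript that was not spiked in ran from 39.1 to 62.7. The probe sets of Nr4a2, which encodes Nurr1, went against the labels. The first (92248_at) read 320 in clone 42, 485 in puroB, 206 in clone 48 and 254 in puroD, and the other (92249_g_at) read 188, 372, 113 and 213 in the same order. Both were lower in the clone labelled Nurr1 in each pair, with mean differences of -0.45 (limma adjusted p = 0.871) and -0.95 (limma adjusted p = 0.453). Where the probes lie relative to the transfected sequence is not given in the labels, and the lines are therefore called Nurr1-labelled clones. Among markers of other cell types, 0 of 5 endothelial markers passed the filter, 2 of 6 macrophage and microglia markers did, and the summed signal of 7 neuronal markers stood at 6855 for clone 42 and 5459 for clone 48, while puroB had 3328 and puroD 3300. Tubb3 made up most of that sum (5683 of it in clone 42). Of the 4 neuronal markers tested, 3 were higher in both pairs, while Map2, which did not pass the filter, was lower in both. Nefm passed the filter only through clone 42 and clone 48, the group in which it was higher. Nefl passed through those clones and puroD, so the count of neuronal markers is in part set by the filter. The summed signal of 6 fibroblast markers was 8257 and 5334 in the Nurr1-labelled clones and 2202 and 3501 in the controls. Col3a1 was the largest part of it (5015 and 4006 against 1287 and 1749). Col1a2 read 2688 in clone 42 and 524 in puroB, but 1006 in clone 48 and 1053 in puroD. Col1a1 and Col1a2, the other 2 of the 3 tested, had opposite signs in the pairs. Whether these markers have a part in the differences of the apoptosis genes was not tested.

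In the intrinsic pathway of apoptosis, antiapoptotic BCL2 proteins hold back the pore-forming effectors BAX and BAK, and BH3-only proteins relieve that hold. Pores in the outer mitochondrial membrane release cytochrome c, which assembles APAF1 and caspase-9 into the apoptosome, while death receptors act through FADD and caspase-8. p53 raises transcription of several proapoptotic genes and of Mdm2, whose product marks p53 for degradation.

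Promoter sequences of RefSeq (mouse assembly GRCm38.p6) were available for all 31 genes, in 39 entries of 300 bases, from 250 bases before to 50 after each annotated start. Each was searched on both strands for 5 motifs: the NBRE that Nurr1 binds as a monomer (AAAGGTCA), the p53 half-site, a forkhead core (GTAAACA), the GC box (GGGCGG) and the CCAAT box (CCAAT). The NBRE was found in 0 of the 39, against 1.51% of 32851 promoters of the same length. The p53 half-site was in 4 of 39 (10.3%, in Bax, Birc2, Mdm2 and Trp53) against 8.36% of all, and the forkhead core in 2 (5.13%, in Bcl2l11 and Mdm2) against 3.65%. GC boxes were in 25 entries (64.1%) against 35.7% of all promoters, and CCAAT boxes in 13 (33.3%) against 37.4%. A match is a run of letters, not a measured binding site. The 250 bases before the start are printed below for 5 genes: Bak1 (chr17:27028628-27028877, minus strand) and Dffa (chr4:149103892-149104141, plus strand), which had the largest positive mean differences between the groups, Bcl2 (chr1:106714291-106714540, minus strand) and Bcl2l11 (chr2:128125788-128126037, plus strand, the first of its entries), which differed between the pairs at an unadjusted p under 0.05, and Mdm2 (chr10:117710759-117711008, minus strand), which differed in opposite directions. Bcl2l11 met that p only at its dimmer probe set (99418_at), and Casp9 (100366_at), not printed, met it too. Of the 20 tested genes, 11 differed in opposite directions, so this was not particular to Mdm2. Each printed sequence is written 5′ to 3′ on the gene's strand, and capitals mark the motifs. The Bak1 window held none of the 5. The Dffa window held 1 CCAAT box and 1 GC box. The Bcl2 window held 7 GC boxes and 74.8% G and C, and the Bcl2l11 window a forkhead core, 3 GC boxes and 1 CCAAT box. The Mdm2 window held a p53 half-site, a forkhead core, 2 GC boxes and 1 CCAAT box.
Bak1: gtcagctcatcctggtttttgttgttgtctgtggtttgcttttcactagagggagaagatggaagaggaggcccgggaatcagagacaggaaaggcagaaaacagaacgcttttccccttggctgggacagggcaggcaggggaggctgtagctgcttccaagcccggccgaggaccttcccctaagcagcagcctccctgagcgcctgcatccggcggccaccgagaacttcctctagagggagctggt
Dffa: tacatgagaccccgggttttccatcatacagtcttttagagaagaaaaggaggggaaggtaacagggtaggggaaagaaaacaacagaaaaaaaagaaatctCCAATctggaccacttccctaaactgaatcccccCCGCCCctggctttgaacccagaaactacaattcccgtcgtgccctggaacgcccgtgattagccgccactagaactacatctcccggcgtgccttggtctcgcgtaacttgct
Bcl2: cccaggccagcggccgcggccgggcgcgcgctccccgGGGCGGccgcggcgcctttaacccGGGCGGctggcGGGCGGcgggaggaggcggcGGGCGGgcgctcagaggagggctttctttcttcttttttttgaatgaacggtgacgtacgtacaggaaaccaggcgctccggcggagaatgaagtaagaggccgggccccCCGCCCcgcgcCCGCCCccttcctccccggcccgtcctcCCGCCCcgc
Bcl2l11: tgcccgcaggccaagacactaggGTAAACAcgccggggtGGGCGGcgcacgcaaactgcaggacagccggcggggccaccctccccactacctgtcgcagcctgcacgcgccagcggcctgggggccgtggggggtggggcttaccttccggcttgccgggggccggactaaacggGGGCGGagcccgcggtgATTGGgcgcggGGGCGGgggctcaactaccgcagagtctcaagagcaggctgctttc
Mdm2: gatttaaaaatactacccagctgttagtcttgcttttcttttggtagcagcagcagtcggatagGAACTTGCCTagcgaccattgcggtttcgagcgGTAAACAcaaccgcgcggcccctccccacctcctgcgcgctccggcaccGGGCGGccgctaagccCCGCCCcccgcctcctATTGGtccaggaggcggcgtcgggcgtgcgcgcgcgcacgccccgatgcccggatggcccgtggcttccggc

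The comparison of the Nurr1-labelled clones with the control clones, with the matched pair as a block, called 7 of 6419 tested probe sets in limma at an adjusted p under 0.05, or 0.109%. It called 0 of the 28 member probe sets, and 0 of the 28 had an unadjusted p under 0.05, against 474 (7.38%) of all tested probe sets. The members' adjusted p ran from 0.761 to 1.00. For the brightest tested probe set of each gene, the 95% interval of the mean difference reached 0.65 to either side at the median gene, a factor of 1.57. This interval, and each SE given below, is limma's moderated one. It pools the residual spread of the 4 arrays with that over all tested probe sets. It is not the spread of the 2 pair differences alone. A difference smaller than its interval was not detectable with these 4 arrays. The intervals are not adjusted for the 6419 tests, so a call needed a larger difference than that. Fabp7, a neural progenitor marker, had a mean of -2.24 and was not called (limma adjusted p = 0.0503). The members' intervals stretched from -1.38 at the lowest bound (Casp8) to 1.20 at the highest (Bak1). Of the 20 tested genes, 2 were higher in the Nurr1-labelled clone of both pairs, 7 were lower in both and 11 had opposite signs, against 22.4%, 28.3% and 49.3% of 4957 tested genes. Within the first pair their median difference was -0.098 and within the second -0.10, where all tested genes had -0.063 and -0.0038. Scaling each array to its median in place of the trimmed mean moved the median of all tested probe sets from -0.038 to 0.13. It turned the split to 6 higher and 2 lower (all tested genes 38.4% and 15.0%). Quantile normalization turned the split to 3 and 4 (all tested genes 25.8% and 24.9%). Scaling to the median of the tested probe sets gave 2 and 5 (all tested genes 26.2% and 25.4%). The median size of the difference, without its sign, was 0.14 over the 20 genes and 0.23 over all tested genes. The signals of the Nurr1-labelled clones lay wholly above or below those of the control clones in 9 of the 28 probe sets (32.1%), close to the 30.6% of all tested probe sets.

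**Figure D1:**
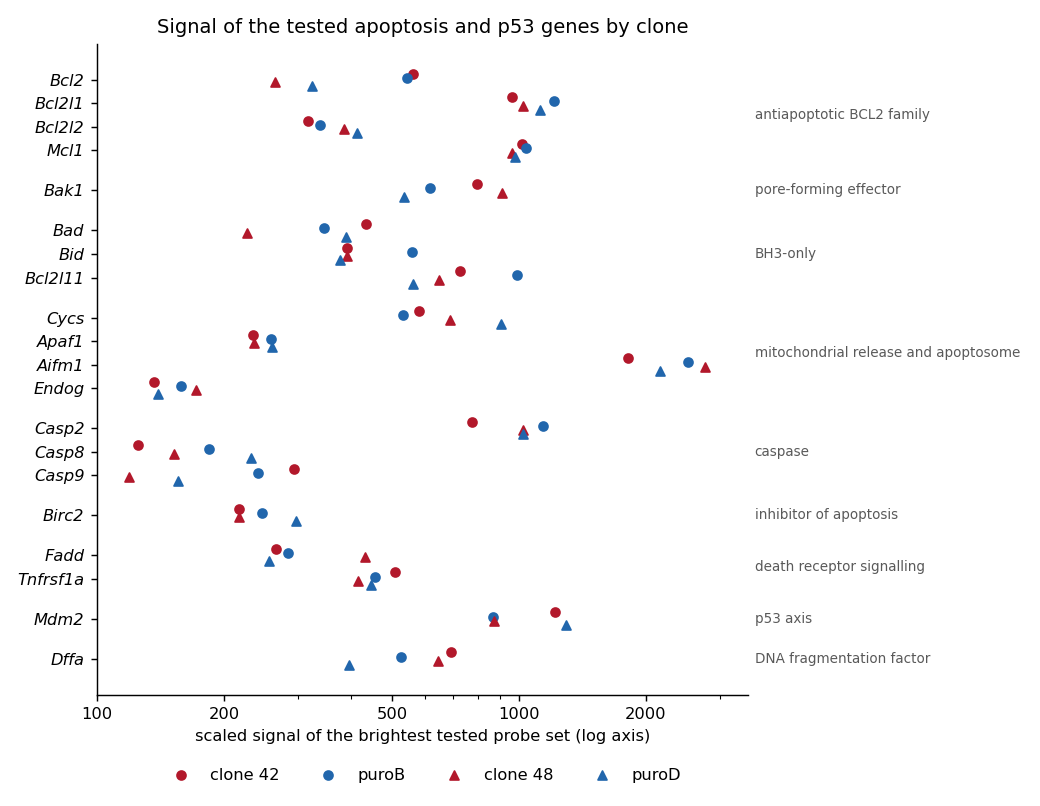
Scaled signal (log axis, arbitrary units) of the brightest tested probe set of 20 apoptosis and p53 pathway genes, grouped by role, with 1 point per clone: circles for the first pair, triangles for the second, red for Nurr1-labelled and blue for control clones. Both red points lie to the right of both blue points for Bak1 and Dffa. The circles lie to the right of the triangles for Bcl2 and Casp9, and also for others such as Bcl2l11, Tnfrsf1a and Mcl1. In both groups 7 of the 20 genes (35%) were higher in the clone of the first pair, against 31.6% of all tested genes.

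Of the antiapoptotic BCL2 family, 4 genes were measured and none had an interval that left out 0. Bcl2 (98870_at), the founding member of the family, read 560 in clone 42, 542 in puroB, 264 in clone 48 and 323 in puroD. Its signals separated by pair and not by label, and its mean difference was -0.12 ± 0.29 (SE, 2 pairs). Bcl2l1 (99027_at), which encodes BCL-XL, read 966, 1213, 1024 and 1125 in the same order. Both Nurr1-labelled clones lay under both controls, with differences of -0.33 and -0.14. Mcl1 (93093_at), a short-lived family member, read 1016, 1041, 961 and 977, with differences of -0.04 and -0.02. Bcl2l2 (160920_at), which encodes BCL-W, read 317, 338, 386 and 413, with differences of -0.09 and -0.10. Scaling the arrays to their medians moves all means up alike, and the means of Mcl1 and Bcl2l2, both close to 0, were then 0.14 and 0.07.

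Bak1 (104710_at), the only pore-forming effector measured, had the largest positive mean difference among the 20 genes. It read 797 in clone 42 against 617 in puroB, and 910 in clone 48 against 535 in puroD. Both Nurr1-labelled clones were above both control clones, by 0.37 in the first pair and 0.77 in the second. The mean of 0.57 ± 0.29 (SE, 2 pairs) had a 95% interval from -0.06 to 1.20 and a limma adjusted p of 0.761, so the difference did not pass the test, and its adjusted p under the alternative settings ran from 0.499 to 1.00.

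The 3 BH3-only genes, whose products set off the pathway, had opposite signs in the pairs. Bad (99670_at) read 435 in clone 42 and 346 in puroB, but 227 in clone 48 and 390 in puroD. The differences were 0.33 and -0.78, while the other tested probe set of Bad (161500_i_at) gave -0.49 and -0.26. Bid (98433_at), which links death receptors to mitochondria after cleavage by caspase-8, read 392, 558, 391 and 377, so puroB alone was high. Bcl2l11 encodes BIM, and its probe sets disagreed. The brightest (100988_at) read 725, 989, 647 and 562, with differences of -0.45 and 0.20. The dimmer one (99418_at) read 181 in clone 42, 173 in puroB, 49.1 in clone 48 and 104 in puroD. Clone 48 was 2.12-fold below puroD there, near the signal of the highest control that was not spiked in on its array (39.1), and the mean difference was -0.51 ± 0.48 (SE, 2 pairs).

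Of the 5 genes for mitochondrial release and the apoptosome, 4 were tested. Cycs (98132_at), cytochrome c, read 579, 532, 687 and 906 in clone 42, puroB, clone 48 and puroD, and puroD alone was high. Apaf1 (103796_at), the scaffold of the apoptosome, read 234, 259, 235 and 261. Its groups did not overlap, with differences of -0.14 and -0.15, and the mean turned to 0.024 when arrays were scaled to their medians. Aifm1 (96858_at), the flavoprotein known as apoptosis-inducing factor, read 1811, 2514, 2758 and 2159, lowest in clone 42 and highest in clone 48. Endog (160494_at), a mitochondrial nuclease, read 136, 158, 171 and 139, with overlapping groups. Diablo, which encodes an antagonist of the inhibitors of apoptosis, read 9.4, 9.1, 41.3 and 12.4 and was at or under the floor of 40.3 on 3 of the 4 arrays.

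Among the caspases, Casp8 had the lowest mean difference of the 20 genes. Casp8 (102328_at), the initiator caspase of death receptors, read 125 in clone 42 against 184 in puroB, and 153 in clone 48 against 232 in puroD. Both Nurr1-labelled clones lay under both controls, with differences of -0.56 and -0.60. The mean of -0.58 ± 0.37 (limma SE, 2 pairs) had a limma adjusted p of 0.855. Casp2 (99049_at), an initiator caspase linked to DNA damage, read 776, 1139, 1022 and 1023. The second pair was level, and the difference of -0.55 lay in the first pair. The other Casp2 probe set (161263_f_at) read 229, 392, 214 and 253, lower in both Nurr1-labelled clones. Casp9 (100366_at), the caspase of the apoptosome, read 293, 240, 119 and 155, higher in both clones of the first pair. Its other tested probe sets had mean differences of 0.20 (103711_at) and -0.14 (100367_g_at), and differed between the first and the second pair by 0.21 and -0.08. Casp6 (94458_at), an effector caspase, read 132, 154, 117 and 136 and did not pass the filter, with a difference of -0.22 in each pair. Casp1 read 8.6, 7.8, 42.1 and 17.2, under the highest control that was not spiked in on 3 of 4 arrays.

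The inhibitors of apoptosis were mostly dim. Birc2 (102734_at), which encodes cIAP1, read 217, 246, 217 and 296 in clone 42, puroB, clone 48 and puroD. The Nurr1-labelled clones were level with each other and under both controls, with a mean of -0.31 ± 0.32 (SE, 2 pairs). Its untested probe set (161883_f_at) read 66.9, 112, 106 and 74.0, with opposite signs in the pairs. Birc3, which encodes cIAP2, read 102, 69.5, 27.0 and 58.3 and did not pass the filter. The brightest of 3 Xiap probe sets (93402_i_at) read 81.5, 115, 41.3 and 101 and did not pass either.

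The 2 tested genes of death receptor signalling had opposite signs in the pairs at their brightest probe sets. Tnfrsf1a (92793_at), the TNF receptor that carries a death domain, read 508, 456, 415 and 447. Those 4 signals overlapped between the groups. Its second tested probe set (161194_r_at) was lower in both pairs, by -0.26 and -0.16, a mean of -0.21. Fadd (100500_at), the adaptor that recruits caspase-8, read 265, 284, 432 and 256. Clone 48 alone stood high, 0.76 above puroD, while the difference of clone 42 from puroB was -0.10. Cflar (103217_at), which encodes the caspase-8 inhibitor c-FLIP, read 212, 122, 78.9 and 116 and did not pass the filter. Clone 42 was 1.73-fold above puroB there and clone 48 was 1.47-fold below puroD. The Fas probe set 102921_s_at read between 1.3 and 3.1 on all 4 arrays. The array control for Fas read 8.8, 34.5, 39.8 and 67.6 in clone 42, puroB, clone 48 and puroD, and was above the highest control that was not spiked in on 2 of the 4 arrays (clone 48 and puroD).

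Mdm2 (98110_at), the only measured gene of the p53 axis, read 1219 in clone 42 and 869 in puroB, but 872 in clone 48 and 1295 in puroD. The differences of 0.49 and -0.57 cancelled to a mean of -0.04 ± 0.33 (SE, 2 pairs). Clone 42 and puroD were high, and the groups overlapped. Its promoter held a p53 half-site, as did those of Bax, Birc2 and Trp53 (4 of 39 entries, 10.3%, against 8.36% of all promoters). Whether the half-site has a part in these values was not tested.

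Dffa (160866_at), which encodes the inhibitor and chaperone of the caspase-activated DNase, had the next largest positive difference after Bak1. It read 690 against 526 in the first pair and 642 against 395 in the second, and both Nurr1-labelled clones lay above both controls. The mean was 0.55 ± 0.29 (SE, 2 pairs), with a 95% interval from -0.07 to 1.16 and a limma adjusted p of 0.770. Its other probe set (99485_at) read 218, 195, 155 and 165, a mean of 0.03, so the probe sets of Dffa disagreed. Dffb, the nuclease itself, was at or under the floor on all 4 arrays.

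**Figure D2:**
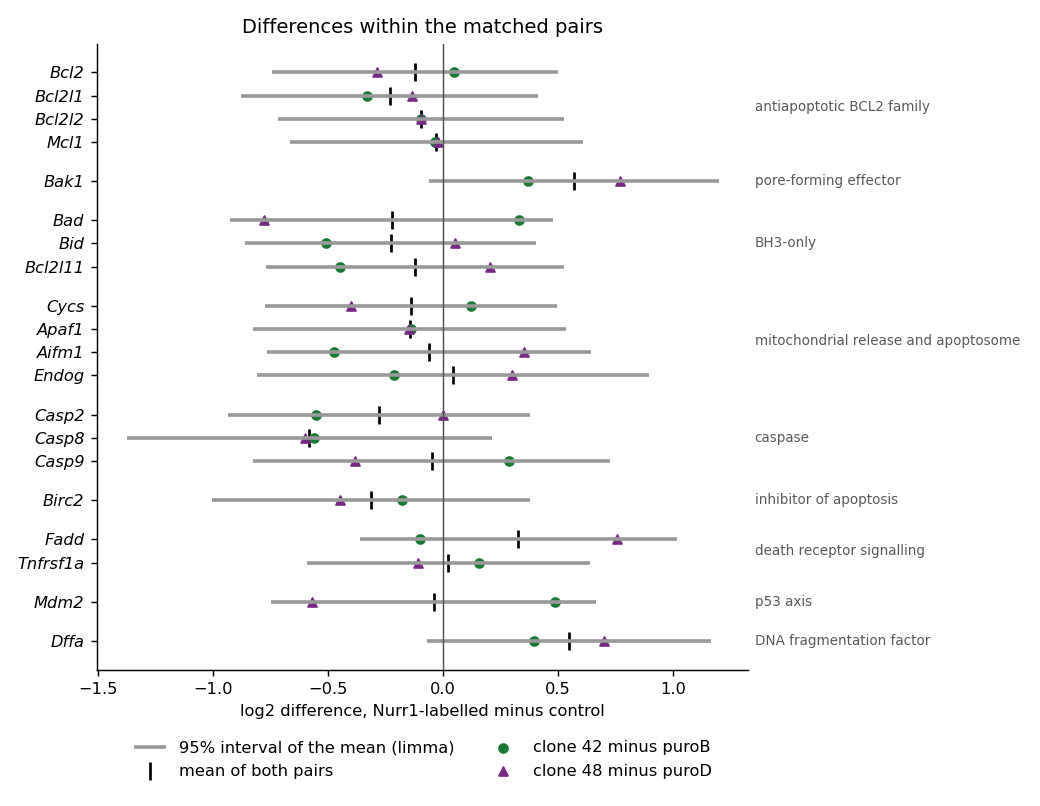
Log2 difference of the Nurr1-labelled minus the control clone for the brightest tested probe set of each gene, by pair (circles, clone 42 minus puroB; triangles, clone 48 minus puroD), with the mean (bar) and its 95% interval from limma (line). All 20 intervals include 0; Bak1 and Dffa lie farthest to the right and Casp8 farthest to the left.

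Single pairs gave few differences of 2-fold or more, either way. Clone 42 and puroB differed by that much in 0 of 28 member probe sets, against 8.35% of all tested. Clone 48 and puroD did so in 1 (Bcl2l11, 99418_at), against 5.39%. The control clones puroB and puroD differed in 0 of 28, against 6.06%, and the Nurr1-labelled clones 42 and 48 in 3 (Bcl2, Bcl2l11 and Casp9), or 10.7%, against 10.7% of all tested. With 1 array per clone these counts have no replicate check.

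The comparison of the first pair with the second over both groups was added after the values had been seen. It asks which genes differ between the clones of the first pair and those of the second. Whether the pairs differ in proliferation rate was not tested. The comparison called 31 of 6419 probe sets (0.483%) and 0 of the 28 member probe sets. Of the 28, 3 (10.7%) had an unadjusted p under 0.05, close to the 10.6% (682) of all tested. Bcl2 (98870_at) was higher in the first pair by 0.92 ± 0.29 (SE, 2 clones per pair; limma adjusted p = 0.227). Its second tested probe set (98869_g_at) gave 0.46. Bcl2l11 (99418_at) was higher in the first pair by 1.31 ± 0.48 (limma adjusted p = 0.301), and its brightest probe set by 0.49. The dimmer one passed the filter only through clone 42 and puroB, the pair in which it was higher, so its difference between the pairs is in part set by the filter. Casp9 (100366_at) was higher by 0.97 ± 0.36 (limma adjusted p = 0.308). Each of these 3 was higher in puroB than in puroD and in clone 42 than in clone 48, and none passed the test. The ratio of the 3′ to the 5′ probe set of beta-actin, a measure of RNA quality, came to 1.68 in clone 42 and 1.51 in puroB. It was higher in clone 48 (2.41) and puroD (2.003). That of Gapdh was 0.94 in clone 42, 0.86 in puroB, 1.24 in clone 48 and 0.97 in puroD. Both ratios were also higher in the Nurr1-labelled clone of each pair. Their part in the differences between the pairs or the groups was not tested. Over the 20 genes, the differences between the control clones and those between the Nurr1-labelled clones had a Pearson correlation of 0.29, where all tested genes had 0.18; the genes share the same 4 arrays, so both are descriptions.

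**Figure D3:**
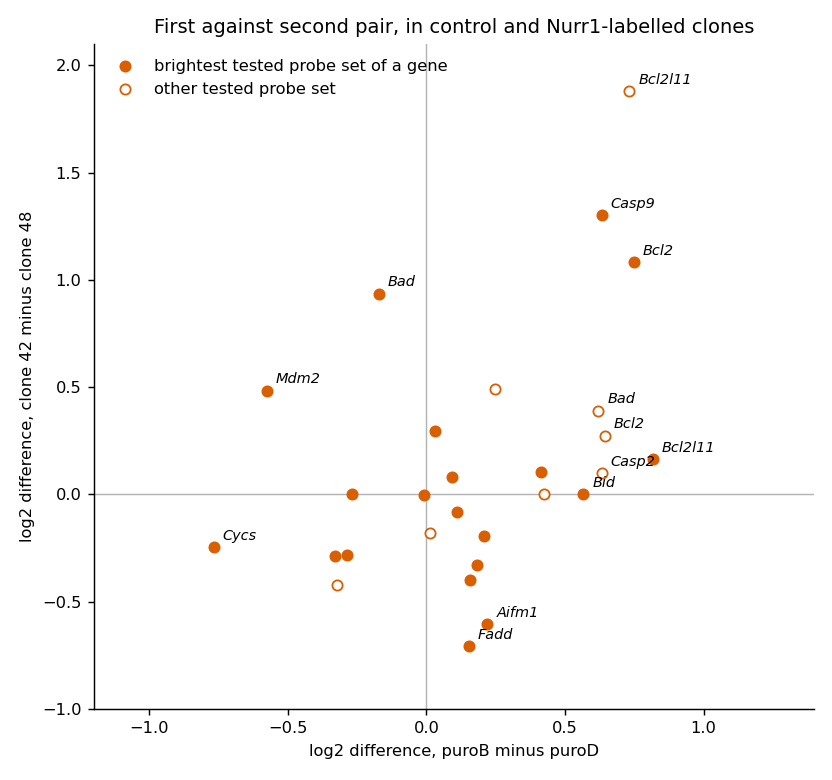
Log2 difference of clone 42 minus clone 48 (vertical axis) against that of puroB minus puroD (horizontal axis) for the 28 tested probe sets of apoptosis and p53 pathway genes; filled points are the brightest probe set of a gene and open points its other ones. Bcl2, Casp9 and the dimmer probe set of Bcl2l11 stand in the upper right, higher in both clones of the first pair, and Mdm2 in the upper left.

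Further apoptosis genes gave the surroundings of these members. Of 60 listed genes, 36 had a probe set and 22 were tested. Of those 22, 3 were higher and 9 lower in the Nurr1-labelled clone of both pairs, 10 had opposite signs (13.6%, 40.9% and 45.5%, against 22.4%, 28.3% and 49.3% of all tested genes), and 0 passed the test (0 at an unadjusted p under 0.05 for their brightest probe sets). With the arrays scaled to their medians, 7 were higher and 3 lower (31.8% and 13.6%), where all tested genes had 38.4% and 15.0%. Under quantile normalization 4 were higher and 9 lower (all tested genes 25.8% and 24.9%). Scaling to the median of the tested probe sets gave 4 higher and 8 lower (all tested genes 26.2% and 25.4%). The largest mean difference with 1 direction in both pairs was that of Bnip3, a hypoxia-inducible BH3-like gene of mitophagy, which read 395, 922, 401 and 441 in clone 42, puroB, clone 48 and puroD. puroB alone stood high, so the mean of -0.68 lay almost wholly in the first pair. Pdcd6, which encodes the calcium-binding protein ALG-2, had a mean of 0.47, Acin1, which encodes a chromatin condensation factor cut by caspases, one of -0.40, and Traf2, an adaptor of TNF receptors, one of -0.38. Htra2, a mitochondrial protease that binds inhibitors of apoptosis, was picked out after its values had been seen: its dimmer probe set (104102_at) read 497, 1052, 686 and 1328. Both Nurr1-labelled clones lay under both controls there, by a mean of -1.02 ± 0.29 (SE, 2 pairs; limma adjusted p = 0.237), while its brighter probe set gave -0.27.

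Among regulators and targets of p53, 0 passed the test between the groups. Of the 45 listed genes, 32 had a probe set and 25 were tested: 4 were higher in both pairs (16.0%, against 22.4% of all tested genes), 14 lower in both (56.0%, against 28.3%) and 7 opposite. With the arrays scaled to their medians the counts were 8 higher and 7 lower, where all tested genes had 38.4% and 15.0%. Under quantile normalization they were 5 higher and 14 lower (all tested genes 25.8% and 24.9%). Scaling to the median of the tested probe sets gave 5 higher and 12 lower (all tested genes 26.2% and 25.4%). At an unadjusted p under 0.05 were 4 of the 25 (Cdkn2a, Igfbp3, Gtse1 and Chek1), against 6.82% of all tested genes. Their median mean difference was -0.20, against -0.025 for all tested genes. Cdkn2a (98789_at), the locus of p16INK4a and of ARF, which holds back MDM2, read 117 in clone 42 against 366 in puroB, and 78.9 in clone 48 against 248 in puroD. Both Nurr1-labelled clones lay well under both controls, with differences of -1.64 and -1.65 and a mean of -1.65 ± 0.37 (SE, 2 pairs; limma adjusted p = 0.107, and 0.0652 to 1.00 under the alternative settings). It passed the filter only through puroB and puroD, the group in which it was higher, so a lower value in the Nurr1-labelled clones is in part set by the filter, and it was not tested with the filter on all 4 arrays. Cdkn1a (94881_at), which encodes the cell cycle inhibitor p21 and is a classic p53 target, read 649, 967, 429 and 664, lower in the Nurr1-labelled clone of each pair, with differences of -0.58 and -0.63 (limma adjusted p = 0.698). Its other probe set (98067_at) gave a mean of -0.16.

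Igfbp3, a secreted binding protein for insulin-like growth factors and a p53 target, did not pass the test between the groups and passed it between the pairs at 1 of its probe sets. Its brightest probe set (95082_at) read 204 in clone 42, 346 in puroB, 482 in clone 48 and 1223 in puroD. Each Nurr1-labelled clone was under its own control, with a mean of -1.05 ± 0.30 (SE, 2 pairs; limma adjusted p = 0.213), and the dimmer probe set (95083_at) had -1.69 (limma adjusted p = 0.0637). The mean of the brightest was -0.14 without puroD, -0.43 without clone 42, -1.67 without clone 48 and -1.97 without puroB. Between the pairs, Igfbp3 passed the test at its brightest probe set: the first pair was lower, with a difference of -1.53 ± 0.30 (SE, 2 clones per pair; limma adjusted p = 0.0398), and its dimmer one did not pass (-0.70, limma adjusted p = 0.437). Gtse1, a G2 and S phase protein that restrains p53, read 418, 841, 764 and 1156, and its mean difference was -0.80 (limma adjusted p = 0.465).

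Gadd45a, a growth arrest and DNA damage gene induced by p53, was the other gene of the p53 list that passed the test between the pairs. It read 4982 in clone 42, 2156 in puroB, 1007 in clone 48 and 867 in puroD. Both clones of the first pair were above both clones of the second, by 1.81 ± 0.34 (SE, 2 clones per pair; limma adjusted p = 0.0360). Between the groups its mean difference of 0.71 did not pass (limma adjusted p = 0.680), and it was -0.44 without clone 42. The calls of Gadd45a and Igfbp3 between the pairs were lost without clone 42 (limma adjusted p = 0.238 and 0.432), without clone 48 (0.982 and 0.814) and without puroD (0.671 and 0.784), and also without the group in the fit, under quantile normalization, with scaling to the median of the tested probe sets, without the filter and without the trend. Markers of proliferation were lower in clone 42 than in puroB for 8 of 9 genes, with summed signals of 13746 in clone 42, 24542 in puroB, 27411 in clone 48 and 26905 in puroD; their part in these differences was not tested.

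**Figure D4:**
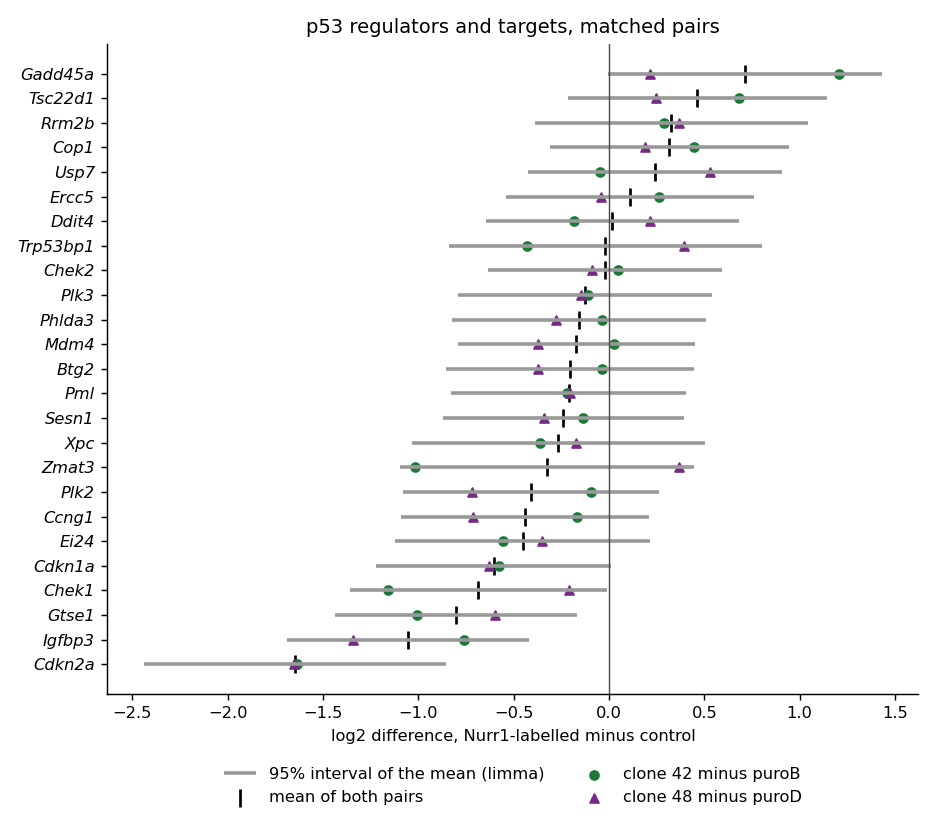
Log2 difference of the Nurr1-labelled minus the control clone for 25 tested regulators and targets of p53, by pair (circles, clone 42 minus puroB; triangles, clone 48 minus puroD), with the mean (bar) and its 95% interval from limma (line). Cdkn2a lies lowest, with both pairs near -1.65, and Gadd45a highest, with the first pair at 1.21 and the second at 0.22.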

How the data were processed

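Total RNA of 4 clonal c17.2 lines was measured on 1 Affymetrix array each, and the clones are the replicates, 2 per group. The deposited table gives each probe set a linear intensity per array, computed with MAS5 per the submitters' processing notes; no MAS5 version or scaling step is given there. The authors' values already had trimmed means of 500.4 to 500.5 per array.

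Each array was rescaled here to a mean of 500 after trimming 2% from each end, signals under 40.3 (the 30th percentile) were raised to it as a floor, and values were put on the log2 scale. MAS5 signals near background vary between arrays by large ratios, and the floor and the filter bound this. After 66 control probe sets were left out, 6419 of 12403 probe sets with at least 2 of 4 arrays above the median of 145.05 were tested with limma 3.58.1 in R 4.3.3 (lmFit, eBayes with trend, Benjamini-Hochberg over all tested probe sets, threshold 0.05), with the matched pair as a block. The pairing comes from the labels, which match the clones by proliferation rate; deviations of paired clones from their group means correlated at 0.19 across probe sets. The fit has 1 residual degree of freedom and 13.1 prior degrees of freedom. Its p-values, SEs and intervals rest on the spread of these 2 pairs pooled with the spread over all those tested. Most of the weight is on the latter. The fit was tested on simulated data.

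Symbols came from the platform annotation: 10814 gene probe sets had 1 symbol, 396 several and 1193 none. Where a gene had several tested probe sets, the brightest stood for it and the others are given. Promoters were taken from a RefSeq table of GRCm38.p6, matched by symbol; protein sequences, which the plan named, were not used here. The members, the further gene lists and the tests were chosen with earlier results of these data known. All members with a probe set are named; from each further list, those that passed the test, or else the 4 of largest mean difference with 1 direction in both pairs, are named, and others are marked in the text or chosen after their values were seen (Cdkn1a, Chek1). Alternatives covered the block, scaling, quantile normalization, floor, filter, trend, probe set rule and each clone left out. The comparison of the pairs and scaling to the median of the tested probe sets were added after the data had been seen.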

Additional observations from a re-analysis of the deposited data

Results flagged for a closer look

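In 6 members the pairs pointed in opposite directions and lay at least 1 apart on the log2 scale. The share of all probe sets with such a gap was not computed, so the count is a description. Opposite signs alone were common, in 11 of the 20 tested members and 49.3% of all tested genes. The difference between the pairs could not be tested, since it leaves no residual degree of freedom with 4 arrays. The first-pair difference (clone 42 minus puroB) less the second-pair difference (clone 48 minus puroD) was 1.11 for Bad (99670_at), 1.15 for the dimmer probe set of Bcl2l11 (99418_at), and 1.06 for Mdm2 (98110_at). In 3 probe sets that did not pass the filter it was 1.34 for Cflar (103217_at), 1.08 for Birc3 (160645_at) and -1.25 for Birc2 (161883_f_at). Clone 48 was at the floor for Birc3, so that value is bounded by the floor. Of these members, Bad, Bcl2l11 and Birc2 had another probe set without such a gap.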

How the results depend on the processing

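No member probe set passed the test between the groups or between the pairs under any setting run. The count over all probe sets was unstable: 7 between the groups became 0 without the replicate block, with quantile normalization, with scaling to the median of the tested probe sets, without the floor and without the filter (287, 373, 466, 473 and 560 at an unadjusted p under 0.05), 51 with scaling to the median and 49 with the filter on all 4 arrays, and ran from 0 to 51 with 1 clone left out (17 without clone 42, 51 without clone 48, 0 without puroB, with 203 at an unadjusted p under 0.05, and 2 without puroD). Leaving out 1 clone leaves its group with a lone array, assumed to vary like the others. The split of higher to lower calls was 4 to 3, against 36 to 15 with scaling to the median, 27 to 22 with the filter on all 4 arrays and 1 to 6 without the trend. The 31 calls between the pairs became 0 without the group in the fit, with quantile normalization and without the filter (515, 575 and 682 at an unadjusted p under 0.05), 63 with scaling to the median, 9 with that of the tested probe sets, 100 with the filter on all 4 arrays and 17 without the trend, and ran from 0 to 129 with 1 clone left out (1 without clone 42, 0 without clone 48, with 277 at an unadjusted p under 0.05, 129 without puroB, and 0 without puroD, with 433). The median over members, -0.11, was -0.028 with quantile normalization, 0.049 with scaling to the median, -0.071 with that of the tested probe sets, -0.12 with the filter on all 4 arrays, -0.12 with the mean of a gene's probe sets, and -0.14 to 0.027 with 1 clone left out. The cause of these moves was not tested, beyond the number of probe sets tested or arrays used. Signs turned with scaling to the median for Aifm1 (0.11), Apaf1 (0.024), Bcl2 (0.049), Bcl2l11 (0.047), Bcl2l2 (0.073), Casp9 (0.12), Cycs (0.031), Mcl1 (0.14) and Mdm2 (0.13), with quantile normalization for Casp9 (0.13), with the median of the tested probe sets for Mcl1 (0.0088), and with the mean of probe sets for Casp9 (0.00055) and Tnfrsf1a (-0.094). With 1 clone left out, the mean difference ran from -0.36 to 0.24 for Aifm1, -0.24 to 0.047 for Bcl2l2, -0.12 to 0.17 for Tnfrsf1a, -0.69 to 0.24 for Bad, -0.66 to 0.42 for Bcl2, -0.70 to 0.60 for Casp9, -0.12 to 0.21 for Endog, -0.025 to 0.68 for Fadd, -0.075 to 0.017 for Mcl1, -0.33 to 0.25 for Mdm2, -0.53 to 0.29 for Bcl2l11, -0.51 to 0.055 for Bid, -0.52 to 0.25 for Cycs and -0.44 to 1.87 for Gadd45a. Without a turn of sign it ran from -1.97 to -0.14 for Igfbp3, -1.24 to -0.37 for Gtse1, -1.21 to -0.15 for Bnip3, 0.12 to 0.81 for Pdcd6, -0.56 to -0.23 for Acin1, -0.55 to -0.21 for Traf2, -0.48 to -0.078 for Casp2, -0.45 to -0.18 for Birc2 and 0.34 to 0.75 for Dffa. Bak1 and Dffa kept their sign in every setting run, as did Bcl2l1, Birc2 and Casp2, and Casp8 in each setting that tested it. Bak1 and Dffa had an unadjusted p under 0.05 only with scaling to the median, Dffa at its brightest probe set. They were 2 of the 27 member probe sets tested there, against 532 of 6401 of all tested. Signals under about 63 lie within the range of controls that were not spiked in, which limits Birc3, Casp1, Dffb, Diablo, Fas and Xiap.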
